A study of Mus musculus with 13 samples.

Results

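The 8 genes described here, *Il21*, *Cd40lg*, *Bcl6*, *Ascl2*, *Tox2*, *Cxcr5*, *Il6ra* and *Sh2d1a*, are named for their part in follicular helper T cells. They were taken by symbol from the 24417 genes of each count table, and all 8 were found in both. Bulk RNA-seq was done on doubly sorted cells from spleen and lymph nodes of C57BL/6 mice in 2 experiments. Per the study's methods the sort kept cells with TCRβ and CD4 and without CD8 or NK1.1, a gate that should leave out B, plasma, myeloid, CD8 T and NK cells. The first used male mice analyzed at day 21, each of which had received 4-hydroxytamoxifen (4-OHT) once, at postnatal day 14: 3 libraries of control Treg cells (*Foxp3*DTR-GFP/y *Cd4*creERT2), 3 of rescued Treg cells (*Foxp3*LSL/y *Cd4*creERT2) and 2 of Treg “wannabes” (*Foxp3*LSL/y *Cd4*wt). The second used female mice labelled 9 to 11 weeks old, all given diphtheria toxin 7, 5, 3 and 1 days before analysis: 3 libraries of resting Treg “wannabes” (*Foxp3*LSL/WT *Cd4*wt) and 2 of activated Treg “wannabes” (*Foxp3*LSL/DTR *Cd4*wt). The series' design text gives these numbers the other way round, and the groups here follow the titles and genotypes of the samples, as do the numbers in the study's methods.

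Treg “wannabes” are cells that transcribe the *Foxp3* locus but make no Foxp3 protein, because the LSL allele carries a Thy1.1 reporter and a STOP cassette between loxP sites. In rescued mice a Cre recombinase expressed from *Cd4*, and therefore in T cells at large, removes the cassette once 4-OHT is given, so rescued Treg cells had Foxp3 for 7 days at most. Control Treg cells carry another *Foxp3* allele and came from healthy mice that had Foxp3 throughout. Mice with rescued cells had only “wannabes” in their place until 4-OHT. Allele, disease and this earlier state cannot be told apart between the Treg groups. In the female mice the toxin kills only cells with the DTR allele, so activated “wannabes” came from mice that had lost their Treg cells and resting ones from mice that kept them. The libraries held between 25556783 and 36659638 counts on named genes, and the T cell markers were detected in every library (6 of 6 tested markers above 3 counts). *Foxp3* counts followed the labels, at 3018 ± 362 normalized counts in male “wannabes” (SD, n = 2), against 6934.5 ± 1397 in control and 31534 ± 4279 in rescued Treg cells (SD, n = 3 each).

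Follicular helper T cells enter B cell follicles and drive germinal centers. The transcription factor BCL6 directs their program and represses that of other helper lineages, CXCR5 brings them to the follicle, and the cytokine IL-21 and the ligand of CD40 carry their help to B cells. A part of the Treg pool, the follicular regulatory T cells, uses the same homing receptor and the same transcription factor.

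*Il21* showed the widest range of the 8 genes and *Bcl6* encodes the factor that directs the program, so the 250 bases before the transcription start are shown for both, from RefSeq on GRCm38.p6. Each is printed 5′ to 3′ on the minus strand, on which both genes lie, and for *Bcl6* it is the start farthest upstream of those RefSeq lists. *Il21* is at chr3:37232637-37232886 and *Bcl6* at chr16:23988853-23989102. Capitals mark GGAAA, the core that NFAT factors bind, and TTCNNNGAA, the repeat shared by STAT and BCL6 sites, on either strand.
Il21: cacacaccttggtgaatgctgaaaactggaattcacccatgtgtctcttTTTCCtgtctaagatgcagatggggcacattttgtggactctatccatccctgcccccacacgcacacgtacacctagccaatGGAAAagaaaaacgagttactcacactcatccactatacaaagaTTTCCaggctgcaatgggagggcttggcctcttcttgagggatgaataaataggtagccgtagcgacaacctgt
Bcl6: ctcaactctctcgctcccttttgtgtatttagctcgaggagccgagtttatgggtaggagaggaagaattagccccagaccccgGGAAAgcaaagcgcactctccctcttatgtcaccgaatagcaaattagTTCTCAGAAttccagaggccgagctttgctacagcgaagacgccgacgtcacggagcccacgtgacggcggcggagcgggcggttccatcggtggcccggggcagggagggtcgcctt
The *Il21* stretch held GGAAA or its complement 3 times, beginning 201, 118 and 74 bases before the start. The *Bcl6* stretch held it once, at 166 bases, and TTCNNNGAA once, at 118 bases. Of 32851 RefSeq windows of 300 bases around mouse starts, 61.3% held GGAAA and 8.30% held TTCNNNGAA. No match to the AP-1 motif TGANTCA (7.81% of windows), to TATAAA (13.6%) or to CAGCTG (16.3%) lay in either stretch, and none of the matches in capitals overlapped. The 300-base window of the other *Bcl6* start in RefSeq, further into the gene, held GGAAA or its complement 4 times and TTCNNNGAA 3 times. Of the *Tox2* windows, 2 with starts 1 base apart held GGAAA and TATAAA once each, and the other 3 held none of the 5 motifs, as did the windows of *Il6ra* and *Ascl2*. A match is a stretch of letters and no evidence of binding.

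The question asked of each comparison was how the follicular helper genes differed between Treg cells and “wannabes” and with disease. Against male “wannabes”, 6 of the 8 genes differed in rescued Treg cells by edgeR's test at an adjusted p under 0.05 (14.1% of all 14925 genes tested did), and 5 of the 8 in control Treg cells (16.2% of all genes). In each of these comparisons *Il21* and *Cd40lg* were lower in Treg cells and *Il6ra* and *Sh2d1a* higher. The 2 “wannabe” libraries serve in both comparisons. Both Treg groups come from other mice and differ from the “wannabes” in *Cd4* genotype (creERT2 against wt) as well as in cell type. Per the study, T cells were less activated within a week of 4-OHT in rescued mice, while *Cd4*wt mice grew sicker. Control Treg cells differ from the “wannabes” in *Foxp3* allele and disease too. None of these differences can be told apart here. Between rescued and control Treg cells only *Il21* passed the test among the 8 genes (2.30% of all genes did). Between activated and resting “wannabes”, *Il21* was lower and *Sh2d1a* higher, 2 of the 7 genes tested (22.5% of all 13166 genes). DESeq2 called 3 of the 8 between the Treg groups (8.12% of all genes), 7 for rescued (23.9%) and 6 for control Treg cells (26.3%) against male “wannabes”, and 5 between the female groups (26.4%). Libraries of the groups compared did not overlap for 4 of the 8 genes between the Treg groups (24.2% of all genes), for 7 and 6 against male “wannabes” (42.7% and 46.1%) and for 5 of the 7 tested in the female mice (56.5%). In bulk RNA, fewer cells expressing a gene and less RNA per cell cannot be told apart.

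**Figure D1:**
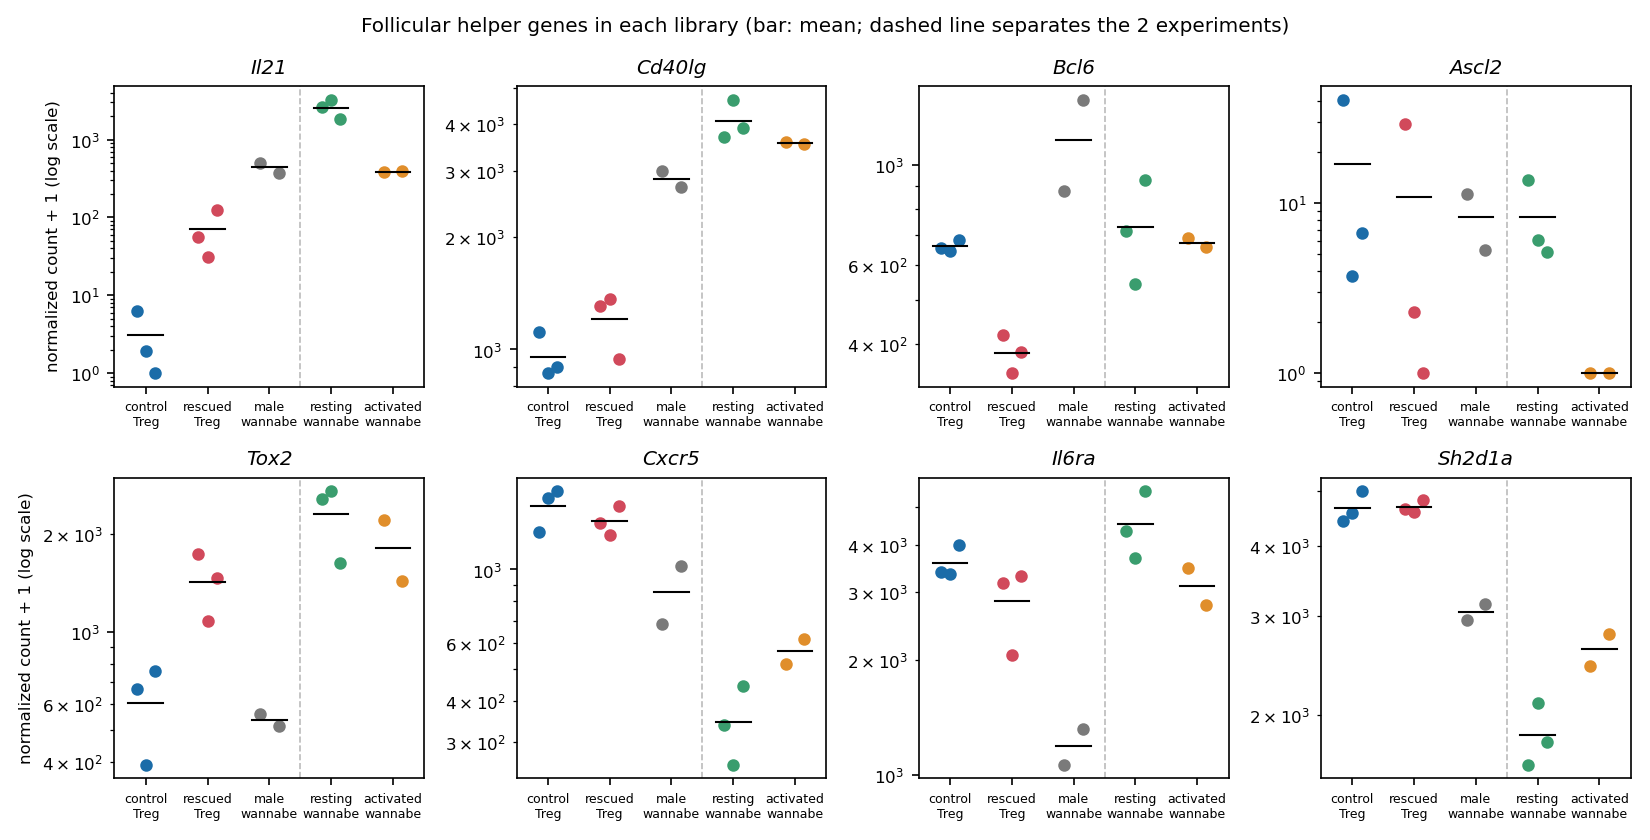
Normalized counts plus 1 (log scale) of the 8 follicular helper genes in each of 13 libraries, 1 point per library, with a bar at the mean of each group; levels can be compared on 1 side of the dashed line only, since the experiments were normalized apart. *Il21* spans from 0 counts in a control Treg library to 502 normalized counts in a male “wannabe” library, and from 382 to 3254 in the female libraries, and the *Cd40lg* libraries of male “wannabes” all lie above those of both Treg groups.

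*Il21* encodes the cytokine through which follicular helper cells drive germinal center B cells. It was close to absent from control Treg cells, with 5, 1 and 0 raw counts in the 3 libraries. Rescued Treg cells had normalized counts of 55.7, 29.8 and 122, and male “wannabes” 502 and 375. The order in the male mice was therefore control Treg cells, rescued Treg cells and “wannabes”, with no overlap between any groups. *Il21* rose by 5.03 on the log2 scale from control to rescued Treg cells (SE 0.94, adjusted p = 0.0198, edgeR). It was lower in rescued Treg cells than in “wannabes” by a log2 fold change of −2.66 (SE 0.81, adjusted p = 0.0496) and lower in control Treg cells by one of −7.69 (SE 1.04, adjusted p = 0.00115). The rise from control to rescued Treg cells was 4.34 to 6.89 when a library was left out, the highest without control replicate 1, and its call depended on single libraries: without control replicate 2, control replicate 3 or rescued replicate 3 the adjusted p was 0.0924, 0.0622 and 0.0541, with log2 fold changes of 4.68, 4.46 and 4.34, and in a fit of only the Treg groups it was 0.0753. Lower *Il21* in rescued Treg cells than in “wannabes” kept its call in 3 of 8 such fits and lost it without control replicate 2, rescued replicate 1 or 2, or either “wannabe” library (log2 fold changes from −3.35 to −2.24). The difference between control Treg cells and “wannabes” kept its call in all 8, but its size rested on few counts, with log2 fold changes from −9.55 (without control replicate 1) to −7.11.

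Between the female groups *Il21* moved opposite to its rise from control to rescued Treg cells. Resting “wannabes” had 2602, 3254 and 1836 normalized counts and activated “wannabes” 382 and 389. Each activated library was below each resting library, and *Il21* fell by 2.73 on the log2 scale (SE 0.25, adjusted p = 0.00113, edgeR), with values from −2.92 to −2.53 and a call in all 5 fits that left out 1 library. The difference between the change in Treg cells and the change in “wannabes” was fitted as a contrast of all 13 libraries, and for *Il21* it was 7.82 on the log2 scale (SE 0.90, adjusted p = 0.00111). It lay between 7.14 and 9.63 in the 13 fits without 1 library, the highest without control replicate 1. The opposite changes of *Il21* were known from earlier results of these data when it was taken for this contrast. Its p-value is therefore no independent support for them. Of all 15201 genes tested, 1.53% passed the test of this contrast, and of the 8 follicular helper genes *Il21* alone. By p-value *Tox2* came next (1.59, SE 0.42, adjusted p = 0.0863 by edgeR and 0.00815 by DESeq2), and *Ascl2*, with few counts, had a difference of 5.36 (adjusted p = 0.482). Of 4 plasma cell markers, 3 were lower in every activated than in every resting library: *Sdc1* with 12 to 14 against 119 to 226 raw counts, *Jchain* with 7 to 18 against 42 to 567 and *Xbp1*, which T cells also express, with 7407 to 7605 against 7798 to 9488. *Mzb1* overlapped, with 2 in each activated and 0 to 64 in resting libraries. The summed level of the 4, most of it *Xbp1*, was 236 to 244 against 299.5 to 336 CPM. In the male mice the sum, again mostly *Xbp1*, was 32.1 to 45.5 CPM in “wannabes”, 115 to 134 in control and 163 to 190.2 in rescued Treg cells. *Jchain* had at most 15 and *Sdc1* at most 55 raw counts in a male library, so the male sums say little about plasma cells. The gate on TCRβ and CD4 should remove plasma cells, and their part in the *Il21* values was not tested. The experiments differ in sex, age and treatment as well as in cell type, and these cannot be told apart here. *Il21* lies on chromosome 3 from 37222759 to 37232636 in GENCODE M21, where 469 of its exonic bases are shared with the antisense gene *Gm12534*, and counting without strand could not separate their reads.

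Genes that followed *Il21* were ranked by the root mean square difference of log2 CPM, centred within each experiment, over all 13 libraries and 12971 genes. The nearest was *Vdr*, the vitamin D receptor, at 0.659, against a median of 2.46 over all genes. *Vdr* had means of 71.5 normalized counts in control Treg cells, 498 in rescued Treg cells and 3614 in male “wannabes”, and of 2550.3 in resting and 1051 in activated “wannabes”. Its log2 fold change was 2.81 from control to rescued Treg cells (adjusted p = 0.0271, edgeR) and −1.28 from resting to activated “wannabes” (adjusted p = 0.00381). The first of these calls was lost without control replicate 2 or rescued replicates 1 or 3 (log2 fold changes from 2.34 to 3.92 when a library was left out), and the second held in all 5 fits. The next were *Abhd15* (0.958), *Glp1r*, which encodes the receptor of glucagon-like peptide 1 (1.26), *Lilr4b* (1.34) and *Plekhd1* (1.34). *Lilr4b* showed no detectable fall from resting to activated “wannabes” (−0.09 on the log2 scale, adjusted p = 0.923). Of the 6 other follicular helper genes ranked, *Cd40lg* was the closest to *Il21*, at rank 178 (2.00), and *Il6ra* the farthest, at rank 11139 (2.77). *Ascl2* did not pass the filter on low counts in both experiments and was not ranked. This likeness is a description of 13 libraries and also follows the group means that made *Il21* stand out.

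**Figure D2:**
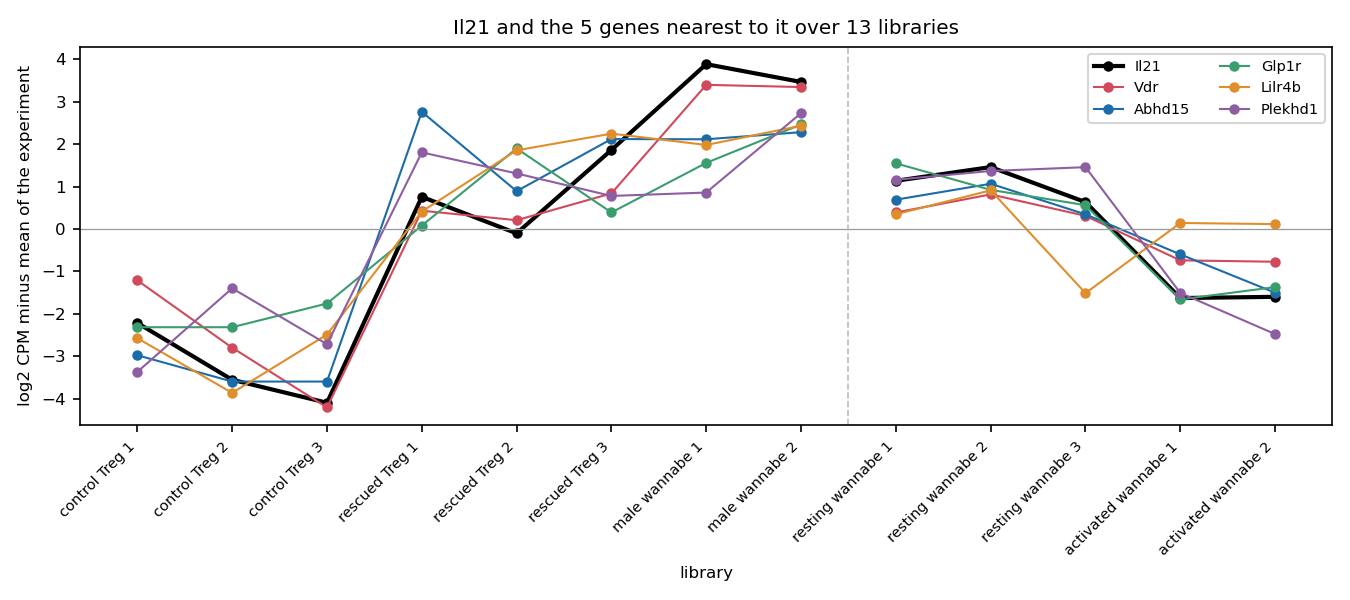
Log2 CPM of *Il21* (black, thick) and of the 5 genes nearest to it in each of 13 libraries, each gene minus its own mean in the experiment; lines join the libraries of an experiment only to guide the eye. *Vdr* lies within an average (root mean square) distance of 0.659 from *Il21*, and *Lilr4b* departs from it in the female libraries.

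*Cd40lg* encodes the ligand with which helper T cells stimulate CD40 on B cells, and lies on chromosome X from 57212143 to 57224042. Control Treg libraries had 1109, 864 and 897 normalized counts, rescued Treg libraries 1302, 1359.6 and 944, and male “wannabes” 2989 and 2714. Treg groups overlapped, and both lay below “wannabes” in every library. The log2 fold change against “wannabes” was −1.25 for rescued Treg cells (SE 0.23, adjusted p = 0.00438, edgeR) and −1.58 for control Treg cells (SE 0.23, adjusted p = 0.00162), and each kept its call without any single library. Between control and rescued Treg cells the log2 fold change was 0.33 (SE 0.21, adjusted p = 0.501). Resting “wannabes” had 3684, 4646 and 3906 normalized counts and activated “wannabes” 3579 and 3527. Every activated library was below every resting one, yet the log2 fold change was −0.20 (SE 0.11, adjusted p = 0.244). Per kilobase of exon *Cd40lg* had the highest mean of the 8 genes in all groups but control Treg cells, where that of *Sh2d1a* was 846 ± 54.9 and that of *Cd40lg* 765 ± 107 (SD, n = 3 each).

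Among the transcription factors, *Bcl6* (chromosome 16, from 23965052 to 23988852, with 21 exonic bases shared with *Gm37419* on the opposite strand) was lowest in rescued Treg cells, with 417, 343 and 384 normalized counts. Control Treg libraries had 653, 642 and 679 and male “wannabes” 875 and 1396. No male groups overlapped, in the order rescued Treg, control Treg and “wannabe”, so that *Bcl6* and *Il21* were ordered differently. The log2 fold change of rescued Treg cells against “wannabes” was −1.57 (SE 0.28, adjusted p = 0.00352, edgeR), a call that held in all 8 fits without 1 library. Against control Treg cells it was −0.79 (SE 0.25, adjusted p = 0.146 by edgeR and 0.0349 by DESeq2), and for control Treg cells against “wannabes” it was also −0.79 (SE 0.28, adjusted p = 0.0773 by edgeR and 0.0164 by DESeq2). The activated female libraries, at 686 and 656 normalized counts, lay inside the range of the resting ones, at 711, 542 and 926 (log2 fold change −0.11, SE 0.22, adjusted p = 0.744). B cells also express *Bcl6*. The sums of 9 B cell markers overlapped between control (35.0 to 48.2 CPM) and rescued Treg cells (37.5 to 44.3 CPM). *Pax5* had 0 to 97 raw counts in control against 0 to 8 in rescued libraries and *Ebf1* 3 to 186 against 2 to 17. *Cd79b* (756 to 1076 against 964 to 1183) and *Blnk* (0 to 9 against 4 to 32) leaned the other way. The part of B cells in the *Bcl6* values was not tested.

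*Tox2*, a factor that follicular helper cells express under BCL6, encoded on chromosome 2 from 163203125 to 163324170, was higher in rescued than in control Treg cells in every library, with 1740.4, 1081 and 1461 against 665, 390.3 and 757 normalized counts. Male “wannabes” had 559 and 515, inside the range of control Treg cells. The log2 fold change of rescued Treg cells was 1.41 against “wannabes” (SE 0.34, adjusted p = 0.0174, edgeR). This call was lost without rescued replicate 1 and without either “wannabe” library. Against control Treg cells it was 1.24 (SE 0.29, adjusted p = 0.0540 by edgeR and 0.00133 by DESeq2, and 0.0447 in an edgeR fit of only the Treg groups), within 1.01 to 1.44 when a library was left out. Activated “wannabes”, at 2202 and 1434 normalized counts, overlapped with resting ones, at 2557, 2710.0 and 1631 (log2 fold change −0.34, SE 0.26, adjusted p = 0.390).

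*Ascl2*, a factor that induces *Cxcr5* in T cells and lies on chromosome 7 from 142966829 to 142969264, was near the detection limit throughout, with at most 37 raw counts in a library. In control Treg cells the raw counts were 37, 3 and 6, in rescued Treg cells 30, 1 and 0, and in male “wannabes” 11 and 4. Resting “wannabes” had 12, 5 and 4 and activated “wannabes” none. Replicate 1 was the highest library in each of the 4 groups with counts. The male groups overlapped, and none of the 3 comparisons passed the test, with adjusted p-values from 0.764 to 0.924 (edgeR). The filter on low counts removed *Ascl2* from the female fit. With activated libraries set to a floor of 3 counts and resting counts taken at face value, the resting mean was 2.56-fold higher. It was 1.62-fold higher without resting replicate 1. Resting counts of 5 and 4 lie close to that floor, so these folds are not secure lower bounds. DESeq2 gave an adjusted p of 0.0444 for activated against resting “wannabes”.

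*Cxcr5* encodes the chemokine receptor that guides T cells into B cell follicles. The gene lies on chromosome 9 from 44511787 to 44561877 and shares 110 exonic bases with *Bcl9l* on the opposite strand, which had 357 to 910 counts in any library. Control Treg libraries had 1297, 1644 and 1724 normalized counts, rescued Treg libraries 1383, 1269 and 1558, and male “wannabes” 684 and 1025. Treg groups overlapped, and both were above “wannabes” in every library. Control Treg cells were higher by a log2 fold change of 0.86 (SE 0.26, adjusted p = 0.0410, edgeR), a call lost without any of the control libraries, rescued replicate 2 or “wannabe” replicate 1, and in a fit of only these groups (adjusted p = 0.0758). For rescued Treg cells the log2 fold change was 0.72 (SE 0.25, adjusted p = 0.0891 by edgeR and 0.0346 by DESeq2). The activated female libraries, at 518 and 616, lay above the resting ones, at 338, 256 and 442 (log2 fold change 0.72, SE 0.24, adjusted p = 0.0760 by edgeR and 0.0343 by DESeq2). B cells also express *Cxcr5*, and the summed level of 9 B cell markers was 23.4 to 26.0 CPM in activated against 10.9 to 13.9 CPM in resting “wannabes”. Of the 9, 6 to 7 were above 3 counts in an activated and 7 to 8 in a resting library. *Cd79b* carried most of the sum, with 631 to 688 against 215 to 256 raw counts. Among the others, *Pax5* had 3 to 5 against 0 to 1 raw counts, *Cr2* 24 in both activated libraries against 9 to 29, and *Ms4a1* 1 to 4 against 5 to 12. In the male groups the marker sums overlapped, between 35.0 and 48.2 CPM. B cells lack TCRβ and should fall outside the sort, and their part in the *Cxcr5* values was not tested.

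*Il6ra* encodes the receptor chain for IL-6, a cytokine that starts the follicular helper program, on chromosome 3 from 89864059 to 89913196, where it shares 242 exonic bases with the antisense gene *Gm42809*. Normalized counts were 3387, 3356 and 3989 in control Treg cells, 3175, 2058 and 3312 in rescued Treg cells and 1064 and 1315 in male “wannabes”. Both Treg groups were far above “wannabes”, by log2 fold changes of 1.59 for control (SE 0.24, adjusted p = 0.00202, edgeR) and 1.26 for rescued Treg cells (SE 0.24, adjusted p = 0.00537), and both calls held in all 8 fits without 1 library. Every rescued library was below every control library, with a log2 fold change of −0.33 (SE 0.21, adjusted p = 0.495). Among female “wannabes”, resting libraries had 4343, 3681 and 5513 and activated libraries 3479 and 2772. Each activated library was below each resting one (log2 fold change −0.53, SE 0.19, adjusted p = 0.0866 by edgeR and 0.0353 by DESeq2). Myeloid cells also express *Il6ra*. The summed level of 8 myeloid markers was 4.64 to 11.2 CPM in control Treg cells, 2.35 to 8.59 CPM in rescued Treg cells and 1.19 to 2.73 CPM in male “wannabes”. *Itgam*, which T cells can also express, made up most of it in control Treg cells (118 to 361 raw counts, against 41 to 213 in rescued Treg cells and 3 to 27 in “wannabes”). The other 7 markers had at most 20 raw counts in a control, 48 in a rescued and 36 in a “wannabe” library; *Cd14* had none in control Treg cells and “wannabes” and up to 23 in rescued Treg cells. Female sums overlapped, at 3.61 to 7.18 CPM in activated and 1.14 to 4.42 CPM in resting “wannabes”. Myeloid cells should likewise be removed by the TCRβ gate, and their part in the *Il6ra* values was not tested.

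*Sh2d1a* encodes SAP, the adaptor through which SLAM family receptors keep T cells and B cells in contact, on chromosome X from 42502453 to 42529330. It was the steadiest of the genes between Treg groups, with 4418, 4563 and 4998 normalized counts in control and 4649, 4591 and 4828 in rescued Treg cells (log2 fold change 0.01, SE 0.14, adjusted p = 0.987, edgeR). Male “wannabes” had 2949 and 3146, below every Treg library. The log2 fold change against them was 0.62 for rescued Treg cells (SE 0.16, adjusted p = 0.0224) and 0.61 for control Treg cells (SE 0.16, adjusted p = 0.0227). Each call held in 4 of the 8 fits without 1 library and was lost without either “wannabe” library and without rescued replicates 1 or 3, or control replicates 2 or 3, in turn. In fits of only the groups compared the adjusted p-values were 0.0919 and 0.0567. Activated “wannabes”, at 2445 and 2791, lay above resting ones, at 1635, 2106 and 1791 (log2 fold change 0.51, SE 0.13, adjusted p = 0.0356). This last call held only without resting replicate 2. The 3′ part of *Sh2d1a* shares 1465 exonic bases with *Tenm1* on the opposite strand, which had 6 to 30 counts in any library.

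**Figure D3:**
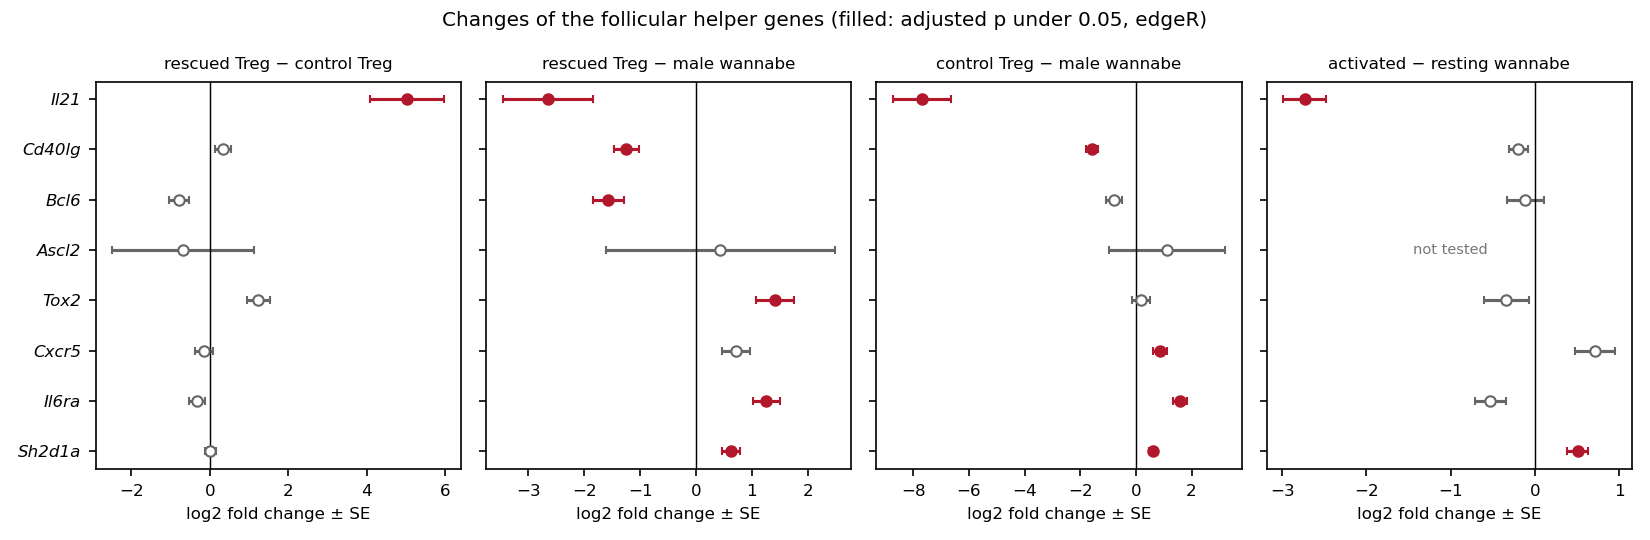
Log2 fold change with its standard error (edgeR) of each follicular helper gene in the 4 comparisons, filled where the adjusted p was under 0.05; each panel has its own scale, and *Ascl2* was not tested in the female mice. *Il21* is filled in every panel, to the right between the Treg groups (5.03) and to the left in the other 3.

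Levels of different genes were compared per kilobase of annotated exon, within a group. In resting “wannabes” *Il21* reached 488 ± 135 normalized counts per kilobase (SD, n = 3), within the spread of *Il6ra* (522 ± 107) and above *Sh2d1a* (335 ± 43.6), *Bcl6* (108 ± 28.7) and *Cxcr5* (104 ± 27.9). In activated “wannabes” it was 73.3 ± 1.03 (SD, n = 2), below *Bcl6* (100.1 ± 3.20) and *Cxcr5* (170.1 ± 20.8). Of the 8 genes only *Ascl2* was lower there. In the male mice *Il21* ranked seventh in “wannabes” and rescued Treg cells and last in control Treg cells, by the same measure.

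The other genes of the pathway were taken from a list of 21 genes of follicular helper cells and a list of 14 genes that oppose their program, chosen with earlier results of these data known. Of the 21, 2 rose and 4 fell from control to rescued Treg cells (median log2 fold change 0.02, against −0.03 for all genes, of which 2.30% passed the test). *Il4*, a cytokine that follicular helper cells also make, had 3, 0 and 11 raw counts in control Treg cells and rose by 6.50 (adjusted p = 0.00119, edgeR), or 5.90 to 8.03 when a library was left out, and *Icos*, the costimulatory receptor, by 1.01 (adjusted p = 0.00498), while *Tox* fell by 1.37 (adjusted p = 0.0102). All 3 kept their calls without any single library. *Pdcd1*, which encodes PD-1, was lower in every rescued than in every control library, with a log2 fold change of −0.55 (adjusted p = 0.0731 by edgeR and 0.00549 by DESeq2), and edgeR called it without either “wannabe” library. Of the 14 opposing genes, 4 rose and 2 fell (median 0.02), beside the same 2.30% of all genes. *Prdm1*, which encodes the BCL6 antagonist Blimp-1, rose by 1.46 (adjusted p = 0.0276), *Tbx21* by 2.27 (adjusted p = 0.0192) and *Id2* by 1.46 (adjusted p = 0.0042), and *Id3* fell by 1.50 (adjusted p = 0.0102). *Id2* kept its call in all 8 fits without 1 library, *Id3* in 7 and *Tbx21* and *Prdm1* in 4 each. *Tbx21* lost its call without control replicates 1 or 3 or rescued replicates 2 or 3, and *Prdm1* without any of the control libraries or rescued replicate 3. *Id3* lost it without control replicate 1. NK cells also express *Tbx21*, and 3 NK cell genes were measured beside it, *Klrb1c* (15 to 46 raw counts in control, 48 to 121 in rescued libraries), *Eomes* (2 to 7 against 21 to 81) and *Ncr1* (0 against 0 to 55), with no call by edgeR (adjusted p = 0.189, 0.235 and 0.182 by edgeR and 0.0446, 0.0440 and 0.0462 by DESeq2). *Cd8a* (2 to 5 against 3 to 17) and *Cd8b1* (419 to 769 against 486 to 675) overlapped. The summed level of these 5 markers of CD8 T and NK cells was 20.8 to 27.6 CPM in rescued and 14.0 to 26.3 CPM in control Treg cells. The sort was gated against CD8 and NK1.1, the product of *Klrb1c*, and the part of these cells in the *Tbx21* values was not tested.

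Against male “wannabes”, rescued Treg cells were higher for 1 and lower for 5 of the 21 genes (median −0.17, against 0 for all genes, of which 14.1% were called), and control Treg cells higher for 4 and lower for 6 (median −0.19, against 0.09, with 16.2% called). *Il4*, like *Il21*, was lower in both Treg groups, by log2 fold changes of −2.75 (adjusted p = 0.00525, edgeR) and −9.25 (adjusted p = 0.000135) in rescued and control cells. *Tnfsf8*, the CD30 ligand, was also lower in both, with −2.13 (adjusted p = 0.000395) in rescued and −2.43 (adjusted p = 0.000382) in control cells. *Tcf7* was lower in rescued (−2.05) and in control Treg cells (−1.07, adjusted p = 0.00187, edgeR). *Pdcd1* (−0.74) was lower in rescued Treg cells, but not without rescued replicate 2. *Sostdc1* was lower in control Treg cells (−4.11, adjusted p = 0.0368) in 4 of 8 fits, and not without control replicate 1, rescued replicates 1 or 2 or “wannabe” replicate 2, nor in a fit of only these groups. Of the 14 opposing genes, 2 were higher and 3 lower in rescued Treg cells (median −0.08, beside 14.1% of all genes called), with *Tbx21* at 2.88, *Ccr7* at −1.61 and *Id2* at −1.53. In control Treg cells 4 were higher and 3 lower (median −0.16, beside 16.2%), with *Id2* at −2.99, *Gpr183* at −1.93 and *Id3* at 1.43. *Prdm1* had log2 fold changes of 0.73 in rescued (adjusted p = 0.173) and −0.72 in control Treg cells (adjusted p = 0.148).

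From resting to activated “wannabes”, 4 of the 21 genes rose and 5 fell (median −0.07, against −0.01 for all genes, of which 22.5% were called). *Angptl2* fell by 2.36 (adjusted p = 0.000427, edgeR) and *Slamf1*, a SLAM family receptor, by 1.12 (adjusted p = 0.00388). *Il4* rose by 1.40 (adjusted p = 0.0260), the direction opposite to that of *Il21* in the same cells, a call lost without resting replicate 1 or either activated library. *Pdcd1* had a log2 fold change of −0.11 (adjusted p = 0.332). Of the 14 opposing genes, 2 passed the test (median 0.05), beside 22.5% of all genes: *Tbx21*, the factor of type 1 helper cells, rose by 3.10 (adjusted p = 0.000465) and *Il2rb*, an IL-2 receptor chain, by 0.57 (adjusted p = 0.00809). *Il2rb* lost its call without either activated library. *Prdm1* had a log2 fold change of −0.79 (adjusted p = 0.0747 by edgeR and 0.0123 by DESeq2). The change in Treg cells minus that in “wannabes” passed the test for 5 of the 21 genes, 3 with a positive and 2 with a negative difference (median 0.02), and for 3 of the 14 opposing genes, all positive (median −0.28), beside 1.53% of all genes (median −0.03). The 5 were *Il4* (5.12), *Angptl2* (2.90), *Maf* (2.30), *Btla* (−1.35) and *Tcf7* (−1.01), the last 2 named after their values were seen, and the 3 were *Prdm1* (2.27), *Id2* (1.80) and *Gpr183* (1.16), all with adjusted p-values of at most 0.0299 (edgeR). Of these, *Angptl2* was called in all 13 fits without 1 library and *Il4*, *Maf*, *Tcf7* and *Id2* in 11, not without either activated library. *Btla* was called in 8, and not without control replicate 3, resting replicates 1 or 2 or either activated library. *Prdm1* and *Gpr183* were called in 7, and not without control replicates 2 or 3, resting replicates 1 or 2 or either activated library.

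**Figure D4:**
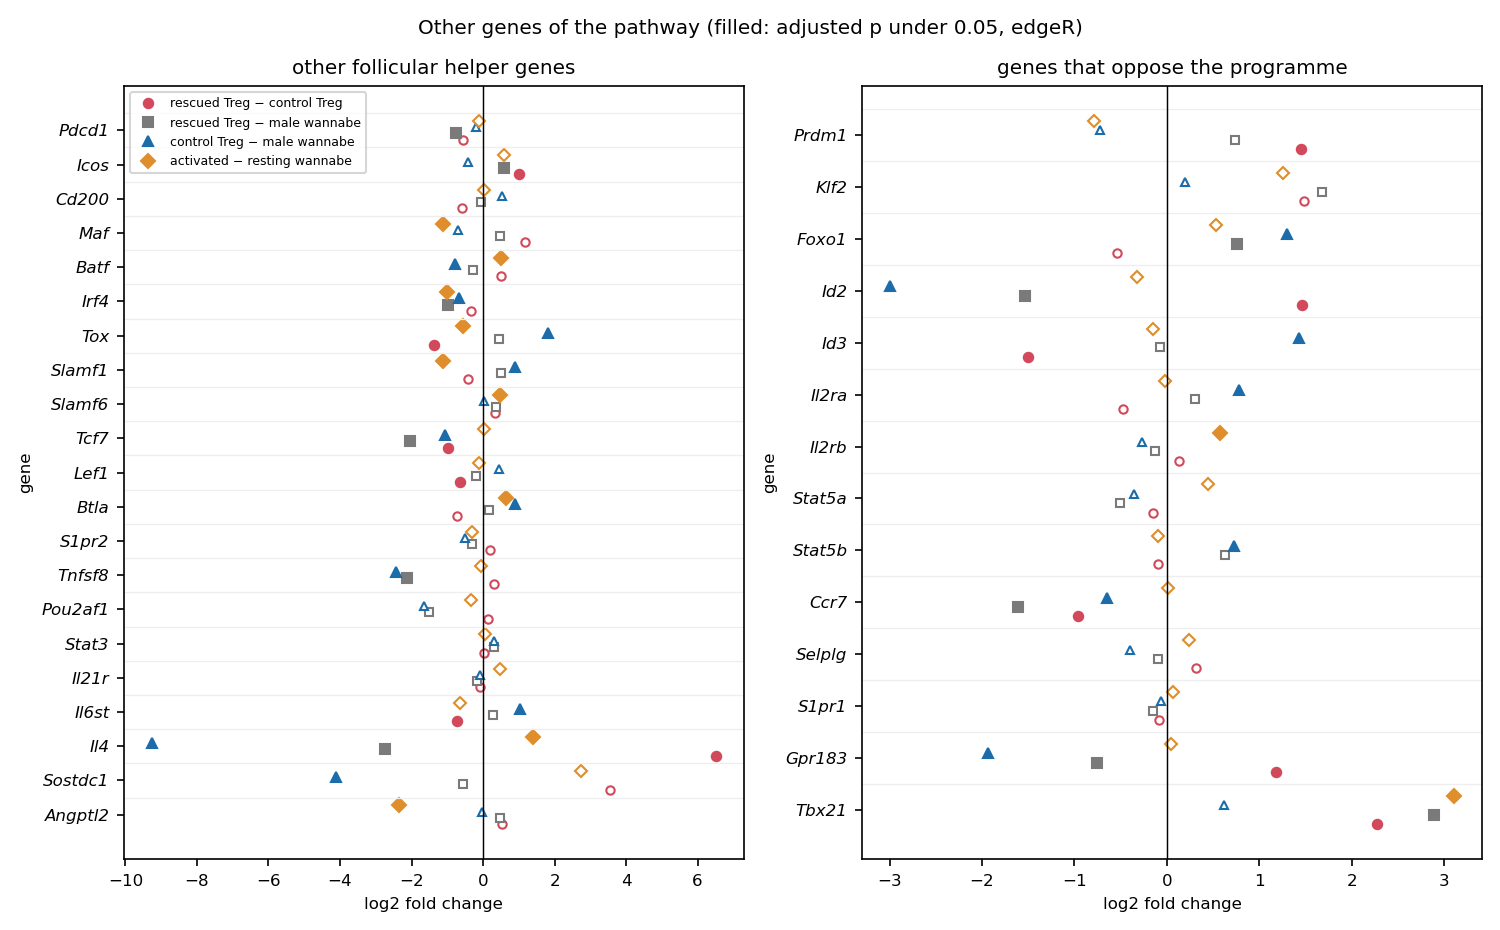
Log2 fold changes (edgeR) of the 21 other follicular helper genes (left) and of the 14 genes that oppose the program (right) in the 4 comparisons, filled where the adjusted p was under 0.05; the panels have different scales. *Il4* spans from −9.25 to 6.50, and *Tbx21* lies at 2.27, 2.88 and 3.10 in the 3 comparisons in which it is filled.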

How the data were processed

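Bulk RNA-seq of 8 male and 5 female libraries was used. RNA of doubly sorted cells was amplified with SMART-Seq v4. The authors aligned reads with STAR 2.7.3a to GRCm38 and counted them per gene; deposited values are raw counts, without normalization, and the annotation and strand setting are not given in the sources used here. Of 24421 entries, 4 had no gene name and were left out (0.00353 to 0.00841% of counts). A floor of 3 counts is 8.18e-06 to 1.17e-05% of a library and covers counting error only. Every pair of replicates differed by more than sampling noise (chi-square per degree of freedom 13.2 to 144). The study's methods call the male libraries biological replicates and give the female ones as separate mice.

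Genes were tested in R 4.3.3 with edgeR 4.0.16 (TMM, filterByExpr on groups, quasi-likelihood F test, Benjamini-Hochberg over all genes tested, adjusted p under 0.05). Male libraries were fitted together, female ones on their own, and the difference of changes over all 13. Normalized counts are counts scaled by TMM library size to the mean of the experiment; a prior count of 2 was added for log2 CPM. Genes named are the 8, *Foxp3*, *Pdcd1*, *Prdm1*, in each comparison the 3 called genes of each pathway list with the largest change, and the 5 genes nearest *Il21*; markers and overlapping genes stand beside the results they touch, and the values of 1 marker are not reported here. Members and lists were chosen with earlier results of these data known. Gene coordinates and exon lengths come from GENCODE M21 on GRCm38. RefSeq promoter windows were found for 5 of the 8 genes (not *Cxcr5*, *Sh2d1a* or *Cd40lg*). Alternatives were DESeq2 1.42.0, its size factors in edgeR, no filter, leaving out each library, fitting only the groups compared, and blocking on the replicate number.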

Additional observations from a re-analysis of the deposited data

Results flagged for a closer look

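The change of *Il21* from control to rescued Treg cells and its change from resting to activated “wannabes” differed by 7.82 on the log2 scale (adjusted p = 0.00111, edgeR, over 15201 genes), a difference between the experiments in a contrast fitted to all 13 libraries. *Il21* was higher in 3 of 3 rescued libraries than in any control Treg library and lower in 2 of 2 activated libraries than in any resting one. The contrast was chosen with these opposite changes already known, so its p-value is no independent support for them.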

How the results depend on the processing

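The number of follicular helper genes that passed the test between rescued and control Treg cells was 1, and it was 3 with DESeq2, 2 without the filter on low counts, 2 with the replicate number as a block and 0 to 2 when 1 library was left out. Against male “wannabes” it was 6 for rescued Treg cells, with 3 to 6 when 1 library was left out, and 5 for control Treg cells, with 3 in a fit of only the groups compared and 3 to 5 when 1 library was left out. Between activated and resting “wannabes” it was 2, with 5 by DESeq2 and 1 to 3 when 1 library was left out. In fits of only the groups compared, *Il21* between the Treg groups (adjusted p = 0.0753), *Sh2d1a* in rescued (0.0919) and in control Treg cells (0.0567) and *Cxcr5* in control Treg cells (0.0758) against male “wannabes” lost their calls, and *Tox2* between the Treg groups gained one (0.0447). DESeq2 called 7 further changes, the difference of changes of *Tox2* among them, and also *Ascl2* in the female mice, which edgeR did not test; its size factors moved none of 38 across a threshold or through 0. Same-numbered libraries did not deviate together (correlations from −0.0292 to 0.0845), so the numbers were not read as pairs; with them as a block, *Ascl2* in rescued Treg cells against male “wannabes” (−0.54) and *Bcl6* in activated against resting “wannabes” (0.11) turned direction, *Il21* in rescued Treg cells against “wannabes” (adjusted p = 0.0768) and *Cxcr5* in control Treg cells against “wannabes” (adjusted p = 0.0611) lost their calls, and *Tox2* between the Treg groups (adjusted p = 0.0279), *Cxcr5* between the female groups (adjusted p = 0.0470) and the difference of changes of *Tox2* (adjusted p = 0.0346) gained one. Leaving out 1 library also turned the direction of uncalled log2 fold changes, whose ranges were −0.028 to 0.062 for *Sh2d1a* and −4.49 to 1.22 for *Ascl2* between the Treg groups, −3.38 to 1.18 for *Ascl2* in rescued and −0.79 to 1.86 in control Treg cells against male “wannabes”, −0.025 to 0.41 for *Tox2* in control Treg cells against them, and −0.29 to 0.10 for *Bcl6* between the female groups. The cause of these changes was not tested. Fits that left a group with a single library assume that it varies like the other groups. With 2 or 3 libraries a group and, for *Ascl2* and for *Il21* and *Il4* in control Treg cells, counts near the floor, small changes of these genes were not detectable.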
